A study of Mus musculus with 56 samples.

Results

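The 10 genes described here are the enzymes and regulators of hepatic de novo lipogenesis, chosen by symbol as members of the pathway, with earlier results of these data known: Acly, Acaca, Acacb, Fasn, Scd1, Elovl6, Me1, Srebf1, Mlxipl and Thrsp. They are 10 of the 21935 genes in the deposited liver count table, and each one is among the 14105 genes that reached at least 5 reads in at least 3 mice and were tested. De novo lipogenesis builds fatty acids from citrate that leaves the mitochondrion: ATP citrate lyase and malic enzyme supply acetyl-CoA and NADPH, the acetyl-CoA carboxylases make malonyl-CoA, fatty acid synthase assembles palmitate, and an elongase and a desaturase turn it into longer and monounsaturated chains. In the liver the pathway is switched on after a carbohydrate-rich meal, mainly through SREBP-1c (from Srebf1), which responds to insulin, and ChREBP (from Mlxipl), which responds to sugars such as glucose and fructose. It is known to run high in fatty liver disease and feeds the triglyceride stores of the hepatocyte.

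Liver RNA was sequenced from 56 male C57BL/6J mice, 8 in each of 7 groups. The mice came in at 5 to 6 weeks of age and were kept for 36 weeks on chow or on the AMLN diet (high in fat, in fructose and in cholesterol) before 8 weeks of once-daily subcutaneous dosing. All AMLN-fed mice were diet-induced obese (DIO) mice chosen by liver biopsy for steatosis and fibrosis, so they stand for established metabolic dysfunction-associated steatohepatitis (MASH) in 1 strain and sex, and the chow-fed group differed from them in diet and in that selection together. They received vehicle, zalfermin (an FGF21 analog made to act for long) at 0.05 mg/kg (low dose) or 0.2 mg/kg (high dose), semaglutide (a GLP-1 receptor agonist) at 3 µg/kg (low dose) or 120 µg/kg (high dose), or the combination of 0.05 mg/kg zalfermin and 3 µg/kg semaglutide, and chow-fed mice received vehicle. The text deposited with the counts gives the combination as both high doses, whereas the study's methods give both low doses, which are used here.

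The depth of a mouse's library, as reads assigned to genes, ran from 5228187 to 20885786. The mice of a group resembled each other closely across genes, except low-dose semaglutide mouse 6, whose mean Spearman correlation with its own group was 0.967 against 0.981 to 0.986 for the other 7, and chow mouse 8, at 0.947. Low-dose semaglutide mouse 6 was closer to the chow mice (0.974) than to its own group or to the DIO-MASH vehicle mice (0.959). Each mouse was left out in turn, and the counts without low-dose semaglutide mouse 6 are given where they differ, while without chow mouse 8 no call on the 10 genes changed. Albumin, a defining transcript of hepatocytes, was present at 43212 CPM or more in every DIO-MASH vehicle mouse and at 111964 CPM or more in every chow mouse (CPM, read counts set to a common library size by TMM). Its level fits liver as the labelled tissue. Fewer cells of a type and less RNA per cell cannot be told apart in RNA of whole liver.

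Expressed per kilobase of exon, the 10 genes spanned a wide range of levels. Scd1, stearoyl-CoA desaturase 1, which makes oleate and palmitoleate, had the highest level in the DIO-MASH vehicle group, at 7900 ± 2180 CPM per kb (SD, n = 8), and ranked 2 among all genes by CPM. Scd1 alone took 4.34% ± 1.10 of the reads on genes in that group (SD, n = 8) and 1.54% ± 0.378 in chow-fed mice. Thrsp followed at 282 ± 162 CPM per kb and Fasn at 220.5 ± 115 in the same group, then Srebf1 at 103 ± 46.3 and Acly at 77.2 ± 39.3. The lowest levels per kilobase belonged to Acaca, at 10.5 ± 2.89, and Mlxipl, at 9.19 ± 1.31. Neighbors in this order lay within their SDs of each other, apart from the steps between Scd1 and Thrsp and between Acacb (23.1 ± 6.98) and Acaca. Close relatives of Scd1 (Scd2, Scd3 and Scd4) lie beside it on chromosome 19, and how reads that match more than 1 of them were counted is not given in the sources used here, so the values of Scd1 carry that uncertainty.

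The first comparison asked how far the lipogenic genes differed between DIO-MASH and lean liver. Of the 10 genes, 7 were lower in chow-fed than in DIO-MASH vehicle mice by edgeR's quasi-likelihood test (Benjamini-Hochberg adjusted p under 0.05 over all 14105 genes): Acaca, Acacb, Fasn, Scd1, Elovl6, Srebf1 and Thrsp. None was higher. In each gene the mice of the groups overlapped, and the share of all genes for which they did is not given here. Among all genes tested 55.4% passed in this comparison, 28.9% as lower in chow. The median log2 fold change of the 10 genes, chow relative to DIO-MASH vehicle, was -0.82, against -0.01 over all genes tested.

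**Figure D1:**
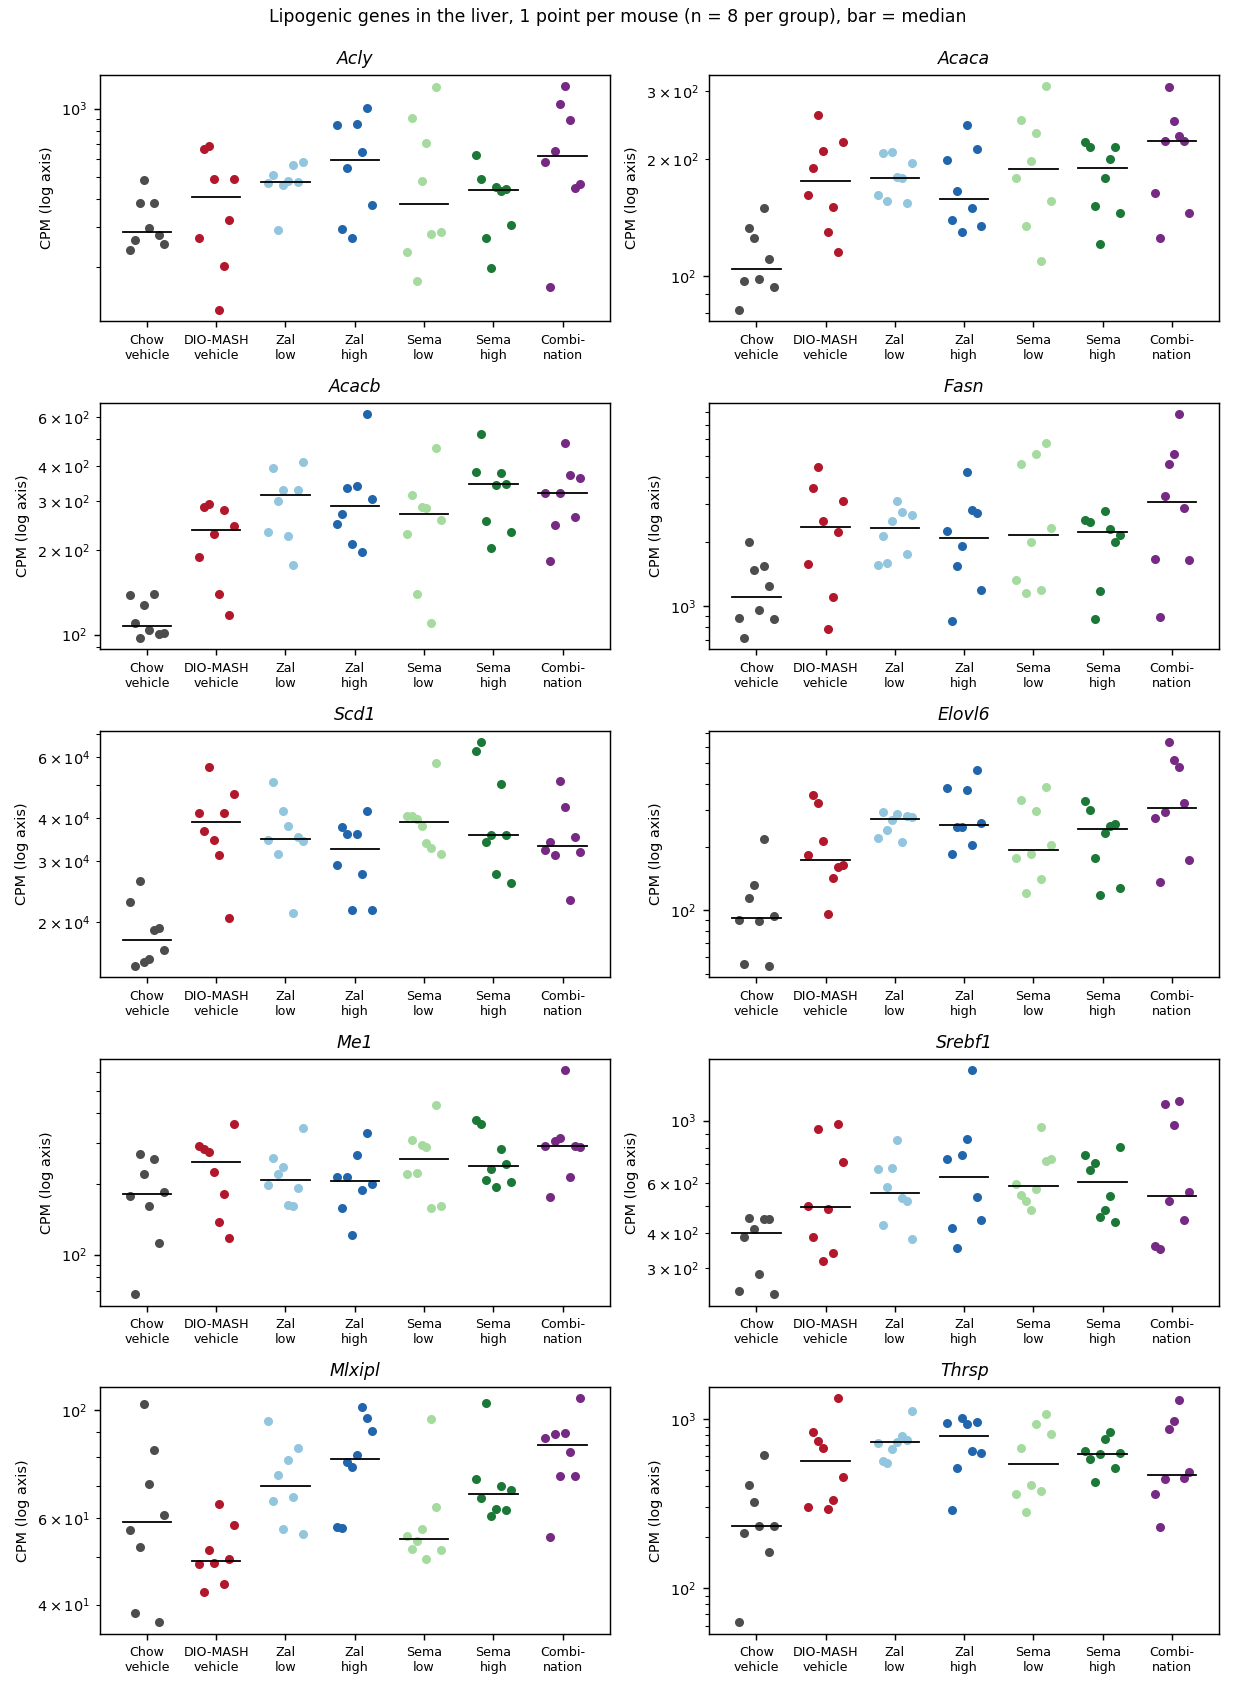
CPM of the 10 lipogenic genes in each of the 56 mice (log axis), by group, with the group median as a bar. For Acacb, Scd1, Acaca, Elovl6 and Thrsp most chow-fed mice lie under every DIO-MASH vehicle mouse (5, 6, 5, 5 and 5 of 8), and for Mlxipl all 8 combination mice lie above the DIO-MASH vehicle median.

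At the entry of the pathway, the genes that supply its substrates showed no change that passed the test. Acly (ENSMUSG00000020917, chr11:100476353-100528000 in GRCm38, minus strand) encodes ATP citrate lyase, which splits citrate into acetyl-CoA and oxaloacetate. It ran from 239 to 485 CPM (median 287) in chow-fed mice and from 130 to 687 CPM (median 407) in DIO-MASH vehicle mice. The chow values all fell inside the wide DIO-MASH range, and the log2 fold change was -0.34 ± 0.33 (SE) with an adjusted p of 0.402 (edgeR). Me1 (ENSMUSG00000032418, chr9:86581371-86695953, minus strand) encodes the cytosolic malic enzyme, a source of NADPH. Its values were 67.7 to 268 CPM (median 182) in chow and 117 to 359 CPM (median 249) in DIO-MASH vehicle, which overlapped broadly, with a log2 fold change of -0.37 ± 0.24 and an adjusted p of 0.186 (edgeR).

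Both acetyl-CoA carboxylases, which commit acetyl-CoA to fatty acid synthesis as malonyl-CoA, were lower in chow. Acaca (ENSMUSG00000020532, chr11:84129672-84401651, plus strand) encodes the cytosolic form and ran from 81.6 to 149.8 CPM (median 104) in chow and from 115 to 259.6 CPM (median 176) in DIO-MASH vehicle. The log2 fold change was -0.69 ± 0.18 with an adjusted p of 0.000809 (edgeR), and 5 of 8 chow mice lay under the lowest DIO-MASH vehicle mouse. Acacb (ENSMUSG00000042010, chr5:114146535-114250761, plus strand) encodes the form at the mitochondrial surface, whose malonyl-CoA holds back fatty acid oxidation. Acacb had 97.2 to 139.9 CPM (median 107) in chow and 117 to 292 CPM (median 237) in DIO-MASH vehicle, a log2 fold change of -0.95 ± 0.23 with an adjusted p of 0.000386 (edgeR). Here too 5 of 8 chow mice lay under every DIO-MASH vehicle mouse.

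Fasn and the enzymes that extend and desaturate its product were about as strongly lower. Fasn (ENSMUSG00000025153, chr11:120805846-120824547, minus strand), fatty acid synthase, had 713 to 1996 CPM (median 1104) in chow and 787 to 4477 CPM (median 2355) in DIO-MASH vehicle. Only 1 chow mouse lay under all DIO-MASH vehicle mice, and the log2 fold change was -0.99 ± 0.36 with an adjusted p of 0.0156 (edgeR). Elovl6 (ENSMUSG00000041220, chr3:129532355-129638495, plus strand) encodes the elongase that turns palmitate into stearate. It ran from 54.3 to 219 CPM (median 92.2) in chow and from 96.1 to 352 CPM (median 174) in DIO-MASH vehicle, with a log2 fold change of -0.95 ± 0.28 and an adjusted p of 0.00314 (edgeR). Scd1 (ENSMUSG00000037071, chr19:44394455-44407879, minus strand) had 14940.3 to 26339 CPM (median 17799) in chow and 20525 to 56185 CPM (median 39009.8) in DIO-MASH vehicle. Its log2 fold change of -1.04 ± 0.19 had the smallest adjusted p of the 10 genes, 5.43e-06 (edgeR), and 6 of 8 chow mice lay under every DIO-MASH vehicle mouse.

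The regulators did not move together. Srebf1 (ENSMUSG00000020538, chr11:60199089-60222581, minus strand), which encodes SREBP-1a and SREBP-1c, had 243 to 452 CPM (median 400.2) in chow and 320.0 to 974 CPM (median 493) in DIO-MASH vehicle, a log2 fold change of -0.67 ± 0.25 with an adjusted p of 0.0226 (edgeR). Thrsp (ENSMUSG00000035686, chr7:97412938-97417730, minus strand) encodes Spot 14, a nuclear and cytosolic protein induced by thyroid hormone and carbohydrate that promotes lipogenesis. It showed the largest fall of the 10, -1.14 ± 0.33 on the log2 scale with an adjusted p of 0.00278 (edgeR), from 291 to 1322 CPM (median 562) in DIO-MASH vehicle to 62.6 to 611 CPM (median 233) in chow. Mlxipl (ENSMUSG00000005373, chr5:135089890-135138382, plus strand), which encodes the carbohydrate response element binding protein ChREBP, went the other way without passing the test: 36.8 to 103 CPM (median 58.9) in chow and 42.4 to 64.4 CPM (median 49.1) in DIO-MASH vehicle, with a log2 fold change of 0.30 ± 0.16 and an adjusted p of 0.0897 (edgeR). Chow mice stood on both sides of the DIO-MASH vehicle range for Mlxipl, 3 above it and 2 below it.

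Leaving out single mice moved the calls of 3 genes in chow. Without DIO-MASH vehicle mouse 3, Fasn (adjusted p = 0.0576, edgeR) and Srebf1 (0.0798) no longer passed, and Srebf1 was also lost without DIO-MASH vehicle mouse 7 (0.0881). Mlxipl passed as higher in chow without chow mouse 2 (0.0308), chow mouse 7 (0.0294) or DIO-MASH vehicle mouse 5 (0.0461). The labels number the mice in a few separate number ranges (here called label series), whose meaning is not given in the sources used here, and in each of the 4 series with both groups (2 chow against 2 DIO-MASH vehicle mice, 1 against 3, 3 against 2 and 2 against 1) the same 7 genes had lower mean log2 CPM in chow. Acly, Me1 and Mlxipl had differences of both signs across the series. Scaling moved the size of these differences. TMM factors were 0.708 to 0.897 in chow and 1.08 to 1.20 in DIO-MASH vehicle, and with library totals in place of TMM the median over all genes shifted to -0.47 and 9 of the 10 genes were lower, Acly (log2 fold change -0.77, adjusted p = 0.0400, edgeR) and Me1 (-0.79, 0.00363) included, while Mlxipl turned to -0.12 (0.501). Over all 14105 genes, 9310 were called in that scaling, 8537 of them as lower, against 7811 and 4072 with TMM. Of the genes called in that scaling, 8.30% were higher in chow, against 47.9% with TMM.

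Marker transcripts of several liver cell types differed in the same comparison. The summed level of 9 hepatocyte markers was 162950 to 263163 CPM in chow and 69332 to 92171 CPM in DIO-MASH vehicle, and all 9 were higher in chow, the opposite direction from the lipogenic genes. Stellate cell markers summed to 188 to 317 CPM in chow and 1134 to 1868 CPM in DIO-MASH vehicle (8 of 10 lower), and macrophage markers to 112 to 645 against 522 to 923 CPM (8 lower and 1 higher of 10). Cholangiocyte markers summed to 32.2 to 292 against 192 to 590 CPM (589.5 at the highest, 3 of 6 lower), and endothelial markers to 148 to 241 against 167 to 226 CPM (3 lower and 1 higher of 6). Adipocytes, the other cell type known for these genes, gave a mixed picture in their defining markers. Lep was at 0 in all 8 chow and all 8 DIO-MASH vehicle mice, and Adipoq at 0 in 5 of 8 mice of each of these groups. Retn was at 0 in 7 of 8 chow and 4 of 8 DIO-MASH vehicle mice. Adrb3 was above 0 in every mouse of both groups, with means of 1.13 and 1.03 CPM. The 10 adipocyte markers summed to 31.7 to 53.4 CPM in chow and 74.2 to 129.9 CPM in DIO-MASH vehicle. Of the 6 tested, 4 were lower in chow, among them Cfd (mean 0.606 against 16.9 CPM) and Fabp4 (3.86 against 29.8 CPM). Whether the shifts in these markers had a part in the lipogenic results was not tested.

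The second comparison asked whether treatment moved these genes. In mice on the combination, 2 of the 10 genes, Mlxipl and Elovl6, were higher than in DIO-MASH vehicle mice and none was lower. Among all genes 20.9% passed in either direction, close to the share of the 10, and 1417 of 14105 passed as higher. The median log2 fold change of the 10 was 0.47, against -0.03 over all genes. With high-dose zalfermin 1 of 10 was higher, Mlxipl, where 17.2% of all genes passed, 8.54% as higher. No gene of the 10 passed the edgeR test with high-dose semaglutide (2.43% of all genes called; 2 of the 10 at an unadjusted p under 0.05, 0 by DESeq2), low-dose zalfermin (0.468% called; 1 unadjusted, 1 by DESeq2) or low-dose semaglutide (0% called; 0 unadjusted, 0 by DESeq2).

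**Figure D2:**
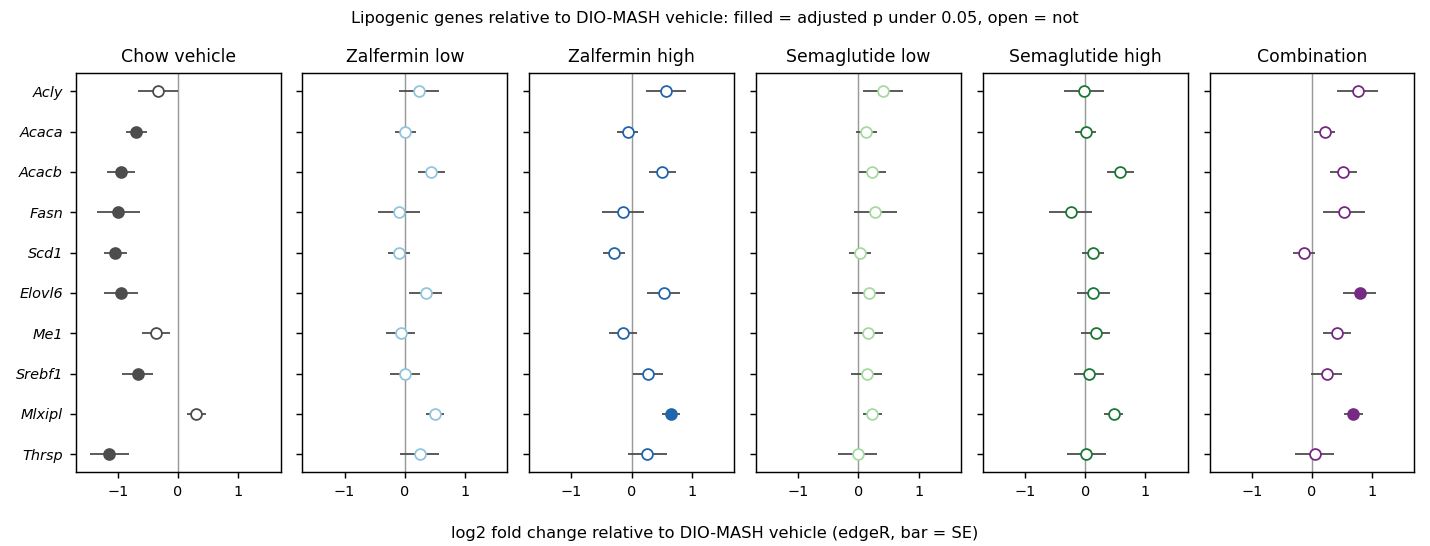
Log2 fold changes of the 10 lipogenic genes relative to DIO-MASH vehicle (edgeR, bars are SE) in 6 groups, n = 8 mice each, with filled points past an adjusted p of 0.05. All genes but Mlxipl lie left of 0 in chow-fed mice, and the only filled points among the treated groups are Mlxipl (high-dose zalfermin and combination) and Elovl6 (combination), both to the right.

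Mlxipl, the gene of ChREBP, had the smallest adjusted p of the 10 genes in the treated groups. DIO-MASH vehicle mice had 42.4 to 64.4 CPM of Mlxipl (median 49.1), and the combination mice 55.1 to 106 CPM (median 84.8), with 7 of 8 above every DIO-MASH vehicle mouse. The log2 fold change was 0.69 ± 0.15 with an adjusted p of 0.000981 (edgeR), and it ran from 0.63 to 0.77 when single mice were left out. High-dose zalfermin gave 57.5 to 101 CPM (median 79.4), 6 of 8 mice above the DIO-MASH vehicle range, and 0.65 ± 0.15 with an adjusted p of 0.00190 (edgeR). Within the label series the combination lay 0.73, 0.65 and 0.91 log2 units above DIO-MASH vehicle and high-dose zalfermin 0.49, 0.65 and 1.0, so the direction was the same in each.

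The other 3 treatment groups lay between. Low-dose zalfermin mice had 55.7 to 94.9 CPM of Mlxipl (median 70.0), with 6 of 8 above the DIO-MASH vehicle range, and a log2 fold change of 0.50 ± 0.15 that missed the threshold (adjusted p = 0.128, edgeR) but passed by DESeq2 (0.0285). High-dose semaglutide mice had 60.6 to 103 CPM (median 67.4), with 0.47 ± 0.15 and an adjusted p of 0.0831 (edgeR). In low-dose semaglutide mice the values were 49.5 to 95.7 CPM (median 54.6), with 0.23 ± 0.15 and an adjusted p of 0.696 (edgeR). All 40 treated mice, 8 in each of 5 groups, lay above the median of the DIO-MASH vehicle group for this gene. Ordered by mean, Mlxipl ran from DIO-MASH vehicle (50.9 ± 7.24 CPM) through low-dose semaglutide, chow, high-dose semaglutide, low-dose zalfermin and high-dose zalfermin to the combination (81.9 ± 15.0 CPM), and no neighboring groups in that order differed by more than the larger of their SDs.

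Elovl6 was the only enzyme past the threshold in a treated group. Combination mice had 137 to 631 CPM (median 307), of which 7 of 8 lay above the DIO-MASH vehicle median and 3 above its highest mouse. The log2 fold change was 0.79 ± 0.27 with an adjusted p of 0.0323 (edgeR). This call was lost with the label series as a covariate (adjusted p = 0.0504), with only the 2 groups fitted (0.0566), with library totals in place of TMM (log2 fold change 0.54, 0.130) and in 7 of the fits that left out 1 mouse (highest adjusted p 0.103, without combination mouse 4). Within the label series the difference was 0.18, 1.40 and 0.64 log2 units. High-dose zalfermin mice had 186 to 466 CPM (median 255), all 8 above the DIO-MASH vehicle median, with 0.53 ± 0.27 and an adjusted p of 0.181 (edgeR). The low-dose zalfermin group stood out by its narrow spread, 212 to 292 CPM with an SD of 30.9, against an SD of 89.3 in DIO-MASH vehicle and 173 in the combination.

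Acetyl-CoA supply and carboxylation gave values in the same direction that did not pass the test. Acly in combination mice had 164 to 1261 CPM (median 618), with a log2 fold change of 0.76 ± 0.33 and an adjusted p of 0.0975 (edgeR). Acacb had 184 to 486 CPM (median 321), 0.52 ± 0.22 and 0.0882, and was close to this level with high-dose semaglutide (0.58 ± 0.22, 0.161) and high-dose zalfermin (0.51 ± 0.22, 0.114). Combination mouse 2 was the lowest of its group for 9 of the 10 genes, all but Scd1, and without it Acly (0.92, adjusted p = 0.0327, edgeR) and Acacb (0.62, 0.0391) passed as higher, which made 4 genes of 10. Fasn in combination mice reached from 895 to 7874 CPM (median 3059), the widest group of the data for this gene, with 0.53 ± 0.35 and an adjusted p of 0.289 (edgeR).

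Scd1 had the only negative log2 fold change of the 10 genes in the combination, whereas with high-dose zalfermin those of Fasn (-0.14 ± 0.35), Me1 (-0.14 ± 0.24) and Acaca (-0.06 ± 0.18) were negative too, and none of these passed. The log2 fold changes of Scd1 were -0.13 ± 0.18 with the combination (adjusted p = 0.650, edgeR; 95% interval -0.50 to 0.24) and -0.29 ± 0.18 with high-dose zalfermin (0.288; -0.66 to 0.07). Combination mice ran from 23202 to 51114 CPM (median 33258) and high-dose zalfermin mice from 21672 to 41999 CPM (median 32675), inside the DIO-MASH vehicle range in every mouse. With library totals in place of TMM, where the median gene moved to -0.21, Scd1 passed as lower with high-dose zalfermin (-0.48, adjusted p = 0.0322, edgeR), so the call on this gene depends on the scaling, and the calls there split into 1 higher and 1 lower. In high-dose semaglutide mice Scd1 spread from 25950 to 66376 CPM (25949.5 at the lowest), with 0.13 ± 0.18 and an adjusted p of 0.759 (edgeR). Thrsp, Srebf1 and Me1 had log2 fold changes between -0.14 and 0.42 in the 5 treatment groups, and the smallest adjusted p among them was 0.204 (edgeR), for Me1 in the combination.

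Markers of the hepatocyte moved with treatment as well. Of 9 hepatocyte markers, 8 were higher than in DIO-MASH vehicle in combination mice (summed level 99955 to 148961 CPM) and in high-dose zalfermin mice (87587 to 152594 CPM), and 3 in high-dose semaglutide mice. Stellate markers were lower for 8 of 10 with the combination (433 to 854 CPM) and for 4 of 10 with high-dose zalfermin (377 to 798 CPM). Of the 6 adipocyte markers tested, 5 were lower with the combination (30.4 to 53.3 CPM in sum), where Adipoq and Lep were at 0 in all 8 mice. In the same mice Retn was at 0 in 6 of 8, and Adrb3 was above 0 in every mouse (mean 1.51 CPM). With high-dose zalfermin 4 of the 6 were lower and 1, Adrb3, was higher (37.7 to 74.5 CPM in sum for the adipocyte markers). There Adipoq was at 0 in 5 of 8 mice, Lep in 6 and Retn in 6, and Adrb3 was above 0 in every mouse (mean 2.39 CPM). Macrophage markers (394 to 980.3 CPM) had 2 of 10 higher in the combination, cholangiocyte markers (55.7 to 241 CPM) 1 of 6 lower, and endothelial markers (142 to 225 CPM) 1 of 6 lower. The endothelial call, on Pecam1, was lost in several fits that left out 1 mouse (adjusted p up to 0.104, edgeR, without combination mouse 3). So was the macrophage call on Timd4 (up to 0.0823, without combination mouse 5). The part of these shifts in the higher Mlxipl and Elovl6 values was not tested.

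Treated mice were next set against the chow-fed group, to ask whether the lipogenic genes had come back to the lean level. Combination mice had 9 of the 10 genes higher than chow-fed mice (32.4% of all genes called, 17.4% as higher), high-dose zalfermin mice 7 (37.2% called, 19.7% as higher) and high-dose semaglutide mice 6 (39.9% called, 21.3% as higher), and none was lower in any of the 3. Without combination mouse 5 the first count was 8, since Me1 was lost (adjusted p = 0.0534, edgeR). Without low-dose semaglutide mouse 6, which enters these fits through the shared spread, Mlxipl in the combination (0.0375) and Fasn with high-dose zalfermin (0.0484) passed as well, for 10 and 8 genes. DESeq2 called 10, 8 and 6 genes in the 3 comparisons, and with library totals in place of TMM, where the median gene shifted to 0.24, 0.27 and 0.33 and 88.9%, 90.7% and 92.3% of the genes called were higher (53.8%, 52.8% and 53.4% with TMM), the counts were 10, 9 and 9. Of all 14105 genes, 2601, 2868 and 3121 were called as higher by DESeq2 in the 3 comparisons, and 4846, 5462 and 6841 with library totals. These comparisons share the chow-fed mice, and those with DIO-MASH vehicle share that group, so they do not stand as separate evidence.

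For Acacb the chow-fed group lay apart from all 3. The chow-fed mice ended at 139.9 CPM, under the lowest mouse of the combination (184), of high-dose zalfermin (198) and of high-dose semaglutide (205), and groups that do not overlap were found for 2.65%, 4.89% and 4.56% of all genes in these comparisons. Log2 fold changes of Acacb relative to chow were 1.47 ± 0.23, 1.46 ± 0.23 and 1.53 ± 0.23, with adjusted p of 2.25e-06, 2.06e-06 and 5.86e-07 (edgeR). Elovl6 had log2 fold changes of 1.74 ± 0.28 for the combination, 1.48 ± 0.28 for zalfermin and 1.08 ± 0.28 for semaglutide at the high doses. Scd1 remained at 0.91 ± 0.19, 0.75 ± 0.19 and 1.17 ± 0.19, each past the threshold (largest adjusted p 0.00124, edgeR). Fasn passed in the combination (1.53 ± 0.36, 0.000884) and missed with high-dose zalfermin (0.85 ± 0.36, 0.0534) and high-dose semaglutide (0.75 ± 0.35, 0.0854), and a fit of only the groups compared carried it over the threshold in both (0.0278 and 0.0266). Mlxipl missed in all 3 (0.0514, 0.0729 and 0.395, edgeR), and with the combination it passed by DESeq2 (0.0389) and without chow mouse 4 (0.00763).

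None of the 10 genes differed by edgeR in the pairs of treatments that were tested. Low-dose zalfermin was not tested against either dose of semaglutide, nor high-dose zalfermin against low-dose semaglutide. The combination was compared with low-dose zalfermin (6.62% of all genes called; 1 of the 10 at an unadjusted p under 0.05, 0 by DESeq2), with low-dose semaglutide (4.21%; 2 unadjusted, 1 by DESeq2), with high-dose zalfermin (0.503%; 1 and 0) and with high-dose semaglutide (1.89%; 3 and 0). High-dose zalfermin was compared with high-dose semaglutide (0.447%; 1 and 0) and with its low dose (1.84%; 0 and 0), and high-dose with low-dose semaglutide (0%; 0 and 0). In the order given, 2989, 2489, 1544, 2028, 1361, 1906 and 549 of the 14105 genes met the unadjusted p in edgeR. DESeq2 called 1169, 779, 176, 415, 143, 368 and 0 of them. The smallest adjusted p was that of Mlxipl in the combination against low-dose semaglutide, 0.0817 with a log2 difference of 0.45 ± 0.15 (edgeR), and it passed by DESeq2 (0.0497) and, in edgeR, without low-dose semaglutide mouse 6 (0.58, 0.00951), whose 95.7 CPM was the highest of its group, or without combination mouse 2 (0.0357). A difference that misses the threshold leaves wide room: for Scd1 the combination minus high-dose semaglutide had a 95% interval of -0.63 to 0.11 on the log2 scale, and for Fasn 0.06 to 1.49. The low-dose interaction, which is the combination minus both single low doses plus DIO-MASH vehicle, was between -0.19 ± 0.46 (Thrsp) and 0.35 ± 0.50 (Fasn), with the smallest adjusted p of the 10 at 0.961 (0.0142% of all genes called; 0 of the 10 unadjusted, 0 by DESeq2). Of all genes tested, 952 met the unadjusted p for it in edgeR, and DESeq2 called 14.

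Mice of the same group varied strongly in these genes. edgeR's biological coefficient of variation was 48.1% for Fasn, 45.5% for Acly, 44.3% for Thrsp and 37.6% for Elovl6, against 22.6% for genes in common, and only Mlxipl (21.3%) was under that. This variation was shared between genes. Over the 56 mice, with each group's mean log2 CPM taken away, 27 of the 45 pairs of the 10 genes had a Pearson correlation past an adjusted p of 0.05 (2-sided permutation test, 100000 permutations within groups, adjusted over 45 pairs), and 29 by Spearman's rho. The correlations were computed after the values had been seen. Pairs of other genes were not correlated in this way, so whether these counts are unusual for liver genes was not tested.

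The tightest pair was Acly and Fasn, with r = 0.871 and rho = 0.890, both at the smallest permutation p possible, 1e-05 (adjusted 2.81e-05 and 3e-05). It held without the 2 mice farthest from the median Acly value (r = 0.846), within the label series (0.924, 0.873 and 0.856) and within single groups (0.592 to 0.985). Acaca and Elovl6 belonged to the same block: Acly and Acaca had r = 0.839 (rho = 0.862), Acly and Elovl6 0.821 (rho = 0.808), Acaca and Elovl6 0.818 (rho = 0.814) and Fasn and Elovl6 0.777 (rho = 0.770), each at that smallest permutation p. Thrsp joined it chiefly through Fasn, at r = 0.745 (rho = 0.769). So over the 56 mice, a mouse with much Fasn transcript for its group tended to have much Acly, Acaca and Elovl6. The strength differed between single groups for these pairs as well. There r ran from 0.650 to 0.890 for Acaca and Fasn and from 0.274 to 0.971 for Fasn and Elovl6. For Acly and Elovl6 it ran from 0.114 to 0.943.

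Scd1, Srebf1 and Mlxipl had lower mean correlations with the other genes (0.266, 0.168 and 0.078). Scd1 was closest to Me1 (r = 0.639, rho = 0.638, permutation p = 1e-05, adjusted 2.81e-05). With the 4 genes of the block, Scd1 passed with Acaca (r = 0.537, rho = 0.538, adjusted permutation p = 7.11e-05 and 0.000202), Elovl6 (0.401, rho = 0.405, 0.00589 and 0.00718) and Acly (0.337, rho = 0.346, 0.0212 and 0.0213), and missed with Fasn (0.211, rho = 0.261, 0.187 and 0.0909). Srebf1 had r = 0.444 (rho = 0.433, adjusted permutation p = 0.00536 and 0.00532) with Fasn, but 0.173 (rho = 0.233, 0.327 and 0.158) with Acaca and -0.083 (rho = -0.053, 0.619 and 0.836) with Scd1. Mlxipl passed only with Srebf1, at r = 0.315 (rho = 0.349, adjusted permutation p = 0.0275 and 0.0199), and the mean r with the other 9 genes was highest for Acly, at 0.576.

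**Figure D3:**
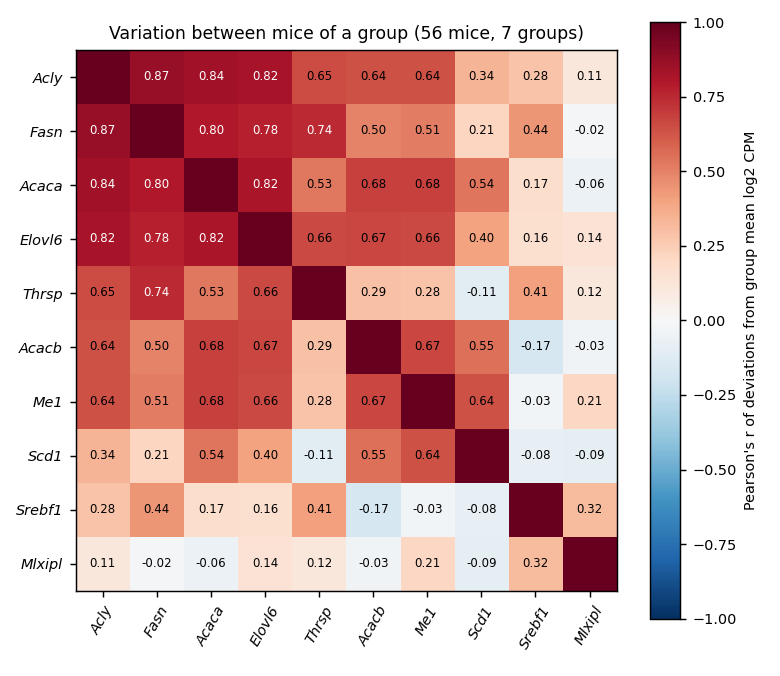
Pearson's r between the 10 lipogenic genes over 56 mice, computed on log2 CPM after each group's mean was taken away. Acly, Fasn, Acaca and Elovl6 form a block with r from 0.777 to 0.871, whereas the rows of Srebf1 and Mlxipl are pale.

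The sequences before the starts of Acly and Fasn, the tightest pair, and of Mlxipl, the gene outside the block that rose with treatment, are shown for comparison (RefSeq promoter table, GRCm38.p6, 250 bases 5′ of the start, in the gene's direction). Of the 10 genes 9 have an entry there. Searched on both strands were the sterol response element TCACNCCAC (in 1.05% of the 32851 windows of the table), the E-box CACGTG (6.02%), the CCAAT box CCAAT (33.8%), the GC box GGGCGG (32.7%), the DR4 element, a pair of AGGTCA copies 4 bases apart (0.0152%), and a pair of E-boxes 5 bases apart (0%). Capitals mark every match, on either strand.
Acly, chr11:100528001-100528250, minus strand: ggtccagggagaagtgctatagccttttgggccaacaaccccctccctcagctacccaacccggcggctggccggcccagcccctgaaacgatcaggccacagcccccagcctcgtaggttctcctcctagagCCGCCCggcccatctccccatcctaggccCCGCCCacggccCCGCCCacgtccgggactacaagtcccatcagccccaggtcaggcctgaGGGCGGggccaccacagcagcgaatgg
Fasn, chr11:120824548-120824797, minus strand: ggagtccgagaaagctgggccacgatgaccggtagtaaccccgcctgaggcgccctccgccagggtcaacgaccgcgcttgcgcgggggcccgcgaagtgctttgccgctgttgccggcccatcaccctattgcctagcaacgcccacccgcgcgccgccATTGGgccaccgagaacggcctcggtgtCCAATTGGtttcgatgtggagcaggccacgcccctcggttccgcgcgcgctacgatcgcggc
Mlxipl, chr5:135089640-135089889, plus strand: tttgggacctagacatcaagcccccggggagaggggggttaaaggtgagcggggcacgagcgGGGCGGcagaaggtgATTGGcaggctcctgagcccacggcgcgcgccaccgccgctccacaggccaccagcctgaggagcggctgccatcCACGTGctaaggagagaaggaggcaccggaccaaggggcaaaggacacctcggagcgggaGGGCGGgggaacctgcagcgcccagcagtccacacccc
Acly holds 4 GC boxes and Fasn 3 CCAAT boxes, 2 of which overlap on opposite strands. Mlxipl's first start holds 1 E-box, whose first base is 98 bases before the start, with 1 CCAAT box and 2 GC boxes. A 250-base window before a second Mlxipl start held the only sterol response element in the bases searched for the 9 genes. Windows of these genes were cut where an annotated exon began, which left 70 bases for Thrsp, 121 for Elovl6, 211 for the first Me1 start and 241 for Acacb. The shares over the whole promoter table are of uncut windows. A match is a description of letters, not a bound site.

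The transcript outside the 10 genes that was most like each of them over the 56 mice is given next. Among 11865 genes with a mean of 1 CPM or more, log2 CPM of Fasn was most like that of Gpam (r = 0.80), which encodes the first enzyme of glycerolipid synthesis, Acly most like Tkfc (0.78), a fructose-metabolizing kinase, and Elovl6 most like Pklr (0.83), liver pyruvate kinase. Acacb was most like Fads2 (0.81) and Scd1 most like Elovl5 (0.84), 2 genes of polyunsaturated fatty acid synthesis, and Acaca and Me1 both most like Gpi1 (0.81 and 0.74). For the regulators, Srebf1 was most like Palld (0.75), Mlxipl most like Thrb (0.71), the thyroid hormone receptor beta gene, and Thrsp most like Tbc1d31 (0.71). All of these correlations share the mice, the libraries and the group differences, and are descriptions.

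Lists of genes around the pathway were counted in the same way, beside 55.4% of all genes called in chow (28.9% as lower), 17.2% with high-dose zalfermin and 20.9% with the combination. In cholesterol synthesis, driven by SREBP-2, 14 of 15 genes were higher in chow than in DIO-MASH vehicle, with Sqle (squalene epoxidase) highest at 3.55 ± 0.45 on the log2 scale, and the list's median was 1.30, against -0.01 over all genes. With the combination 4 of the 15 were higher, led by Pmvk (0.94 ± 0.23), and with high-dose zalfermin also 4. Among 13 genes of SREBP processing, LXR and coactivators, 7 were higher in chow and 1 lower, Insig2 (-1.11 ± 0.22), which retains SREBPs in the endoplasmic reticulum and was also lower with high-dose zalfermin (-0.78 ± 0.22).

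**Figure D4:**
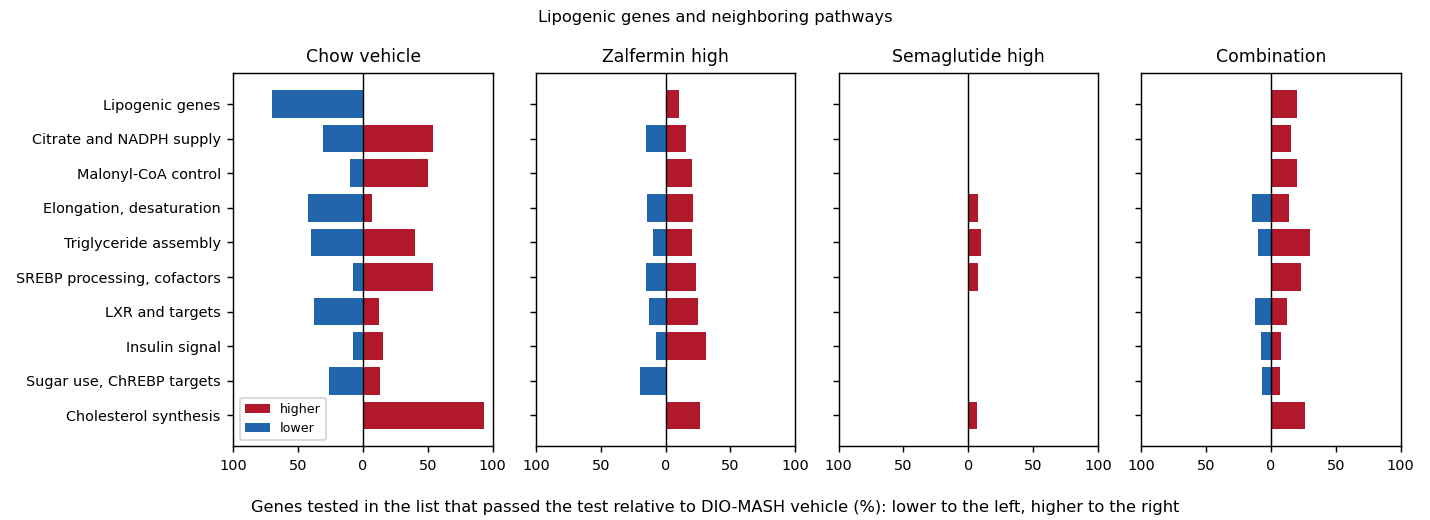
Share of the tested genes of each list that passed the test relative to DIO-MASH vehicle (edgeR, adjusted p under 0.05), higher to the right and lower to the left, n = 8 mice per group. In chow-fed mice the lipogenic genes extend to the left (7 of 10) and cholesterol synthesis to the right (14 of 15), and with high-dose semaglutide few genes passed in any list.

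Chain elongation and desaturation beyond the core genes had 6 of 14 lower and 1 higher in chow (median -0.19), and 2 higher and 2 lower with the combination, among them Elovl2 (0.87 ± 0.12), which elongates polyunsaturated fatty acids, and Elovl7 (-1.33 ± 0.42). Triglyceride assembly was split in chow, with 4 higher and 4 lower of 10, and Mogat1, a monoacylglycerol acyltransferase, fell most in chow (-3.59 ± 0.31), with high-dose zalfermin (-1.80 ± 0.27) and with the combination (-1.77 ± 0.26). Citrate and NADPH supply had 7 higher and 4 lower of 13 in chow, from Acss2 (1.59 ± 0.28), an acetyl-CoA synthetase, to Pgd (-0.89 ± 0.20), and with the combination 2 higher. Control of malonyl-CoA and AMPK had 5 higher and 1 lower of 10 in chow and 2 higher with the combination. Sugar entry and ChREBP targets had 2 higher and 4 lower of 15 in chow, and 1 higher, Khk (ketohexokinase, 0.39 ± 0.13), and 1 lower with the combination. The call on Khk was lost with library totals (0.16, adjusted p = 0.271, edgeR) and without combination mouse 5 (0.0547) or DIO-MASH vehicle mouse 5 (0.0548). The insulin pathway had 2 higher and 1 lower of 13 in chow and 1 higher and 1 lower with the combination, the latter Mtor (-0.45 ± 0.10). LXR with its targets had 1 higher and 3 lower of 8 in chow and 1 and 1 with the combination. With library totals in place of TMM, several of these lists tip to lower in chow (citrate and NADPH supply 3 higher and 8 lower, malonyl-CoA control 0 and 5, SREBP processing 1 and 4), while cholesterol synthesis has 13 higher and 0 lower in chow but 2 higher and 1 lower with the combination and 0 and 0 with high-dose zalfermin.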

How the data were processed

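The authors deposited 1 table of raw gene counts (whole reads per gene, not normalized) for 56 mouse livers. Per the study's methods, stranded mRNA libraries were run on an Illumina NextSeq instrument, and STAR placed the reads on GRCm38, whereas the processing notes in the labels name Trim Galore 0.6.4 and Salmon 1.9.0. The counting program and strand setting are not given in the sources used here, so reads of overlapping or antisense genes and of close paralogs could be split or shared. Samples are separate mice, numbered 1 to 8 within a group in label order. The study left out 1 low-dose semaglutide mouse that the table does not mark, so all 8 were kept.

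Genes that reached at least 5 reads in at least 3 mice (14105 of 21935) were fitted together over all 56 mice and 7 groups with edgeR 4.0.16 (quasi-likelihood test, TMM scaling, R 4.3.3), and p-values were adjusted by Benjamini-Hochberg over all genes at 0.05. CPM was computed with TMM-scaled totals. Totals of 5228187 to 20885786 reads set the counting precision, and each of the 10 genes had mean levels far above 1 read. The test was tried on simulated data first. Alternatives were DESeq2 1.42.0 (its test, and its size factors in edgeR), 2 other filters, the label number series as covariate, only the groups compared, and each mouse left out in turn. Library totals in place of TMM, and the pair correlations, were added after seeing the data. Pair correlations and figures used Python 3.11.15, NumPy 2.4.6, SciPy 1.17.1 and matplotlib 3.10.9.

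The 10 genes and all lists were chosen with earlier results of these data known. Every one of the 10 was described, and from each other list the gene with the largest change in each direction among those past the threshold and averaging 1 CPM or more was eligible to be named (1 such result is not reported here). Identities between paralog proteins were not analysed here.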

Additional observations from a re-analysis of the deposited data

Results flagged for a closer look

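In 5 of the 70 combinations of gene and group, 1 mouse stood far from the other 7 by Dixon's criterion, which chance meets in about 1 in 20 groups. Acly was low in low-dose zalfermin mouse 3, at 291 CPM against 461 for the next mouse. Scd1 was high in low-dose semaglutide mouse 7, at 57617 CPM against 40693. Me1 was high in combination mouse 5, at 612 CPM against 316. Mlxipl was high in low-dose semaglutide mouse 6, at 95.7 CPM against 63.4, and in high-dose semaglutide mouse 3, at 103 CPM against 72.2.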

How the results depend on the processing

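Of 1190 values of single genes recomputed under 7 alternatives, 1169 stayed on their side of the threshold (30 of them changed sign, past it under neither setting), 3 lost the call, 18 gained one and 0 changed direction while called. The number of the 10 genes called relative to DIO-MASH vehicle went from 0 to 1 for low-dose zalfermin (Mlxipl) by DESeq2 and with only the groups compared, from 2 to 1 for the combination (Elovl6 lost) with the label number series as covariate, with only the groups compared and with library totals, from 1 to 2 for high-dose zalfermin (Scd1 lower) with library totals, and from 0 to 1 for high-dose semaglutide (Mlxipl) with only the groups compared. For the combination against low-dose semaglutide it went from 0 to 1 by DESeq2. With single mice left out these counts ran from 5 to 8 for chow, from 1 to 4 for the combination and from 1 to 1 for high-dose zalfermin relative to DIO-MASH vehicle, from 8 to 10, 6 to 9 and 6 to 7 for combination mice and for mice on the high doses of zalfermin and of semaglutide, relative to chow, from 0 to 1 for the combination against low-dose semaglutide, and stayed at 0 in the other comparisons. Acly relative to chow was lost with high-dose zalfermin without chow mouse 1 or high-dose zalfermin mouse 1, 5 or 7 (adjusted p 0.0515 to 0.0777, edgeR). Pairs past the threshold numbered 27, against 29 by Spearman's rho, 26 without low-dose semaglutide mouse 6 and 28 without chow mouse 8.

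Library totals in place of TMM, a choice made after seeing the data, shifted the median log2 fold change of all genes relative to DIO-MASH vehicle to -0.47 in chow, to -0.25 and -0.21 in combination and high-dose zalfermin mice, and to -0.13 in high-dose semaglutide mice, and the share of higher genes among those called from 48% to 9.89% for the combination and from 49.6% to 13.5% for high-dose zalfermin. Relative to those medians the combination's Mlxipl was 0.71 and Elovl6 0.79. Among genes of the other lists, Mogat2 in chow (2.51) turned to -1.09 by DESeq2, -0.052 with the number series and ran from -0.97 (without chow mouse 8) to 2.70 with single mice left out, and with library totals Nr1h3 in chow turned to -0.12 and Akt2 in the combination to -0.0021. The cause was not tested. No paired analysis was possible because the sample numbers in the labels are all distinct and shared by no groups. With 8 mice a group, the smallest difference that could pass depended on each gene's spread between mice. The intervals given for Scd1 and Fasn apply to those genes only.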
